A study of Mus with 14 samples.

Results

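The BCL2 family holds the proteins that decide whether a mitochondrion releases cytochrome c and the cell dies. Bcl2, Bcl2l1 (BCL-XL), Mcl1 and Bcl2a1b (an A1 gene) encode survival proteins, Bax and Bak1 encode the effectors that open the outer mitochondrial membrane, and Bcl2l11 (BIM), Bid, Bbc3 (PUMA) and Pmaip1 (NOXA) encode BH3-only proteins, which bind the survival proteins or switch on the effectors. In blood formation each lineage is known to lean on its own survival protein, and tumour necrosis factor alpha can act on the family from outside through its 2 receptors. The 10 genes were chosen by name, as the best known members of each class, with earlier results of these data known. All 10 were found by symbol and identifier among the 32285 genes in the count matrices. Their mRNA was followed in 14 libraries of single marrow cells, by mouse, by group and by lineage.

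Each library came from 1 mouse, an aged lethally irradiated CD45.1+ host of a secondary transplant, harvested 20 weeks after it received marrow from a primary recipient. All primary recipients had been given CD45.2+ donor cells with CD45.1+ competitor cells and 1 poly(I:C) injection to set off recombination by Mx-Cre, so interferon-driven Cre and serial transplantation are shared by all groups, controls included. Donor-derived Lin-Kit+CD45.2+ marrow cells were sorted, 12000 were loaded per library, and 3' ends were counted with unique molecular identifiers (UMIs). Of the 14 libraries, 3 carried MxCre alone, 4 were Dnmt3a mutants, 3 were labelled Dnmt3a;Tnfr1KO and 4 Dnmt3a;Tnfr2KO, the compound genotypes each lacking a receptor for tumour necrosis factor alpha by their labels. The labels give neither the form of the Dnmt3a allele nor which primary recipient supplied which host. Hosts of a group may therefore share a donor, and the p-values measure the spread between these samples only.

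The targeted genes were read in every library. Levels are given as CPM, UMIs per 1000000 UMIs of a summed library after the scaling of library sizes by edgeR (TMM). Tnfrsf1b, which encodes TNFR2, was at 4.28, 5.45, 5.02 and 5.4 CPM in the Dnmt3a;Tnfr2KO libraries against 13.2, 12.1, 13.9 and 15.5 CPM in the Dnmt3a libraries (edgeR, log2 fold change -1.44, adjusted p = 6.9e-04). Tnfrsf1a, which encodes TNFR1, stood at 42.2, 33.8 and 38.4 CPM in the Dnmt3a;Tnfr1KO libraries against 32.4, 39.8, 52.9 and 49.6 CPM in Dnmt3a (edgeR, adjusted p = 0.585). The transcript count thus did not check that label. These 3 libraries are called Tnfr1KO-labelled here, and Dnmt3a;Tnfr2KO is shortened to Tnfr2KO. The Dnmt3a transcript was still counted in all groups, at a mean of 24.4, 30.5, 21.9 and 23.7 CPM in MxCre, Dnmt3a, Tnfr1KO-labelled and Tnfr2KO.

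Between 1924 and 7265 cells per library were kept, 66895 in all, at a median of 10707.5 to 39086 UMIs per cell. Dnmt3a replicate 1 stood apart because 26.5% of its barcodes were kept, against 63.2% to 91.6% elsewhere, and Dnmt3a replicate 4 because 2117 of its 5422 kept cells were B-like. Any pair of libraries shared 1 to 16 barcodes, at most 0.312% of the smaller library. The markers of the sort were present in every library, Kit at 73.1 to 155 CPM and Ptprc, the gene of CD45, at 73.2 to 141 CPM.

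Lineages were assigned cell by cell from the UMIs of marker genes that include no BCL2 family gene. Granulocyte progenitor-like cells (Elane, Mpo and others) were the most frequent at 28.6%, followed by monocyte-like (10.8%), stem-like (7.81%), erythroid-like (7.51%), B-like (4.61%), maturing neutrophil-like (2.94%), megakaryocyte-like (2.61%), basophil and mast-like (0.777%) and lymphoid-primed-like cells (0.728%). A further 32.8% of cells passed no marker rule. A lineage here is a range of a marker score, and between 0.389% (B-like) and 24.0% (lymphoid-primed-like) of a lineage's cells lay within 25% above the minimum score. Own markers were among the 10 leading genes of each lineage, from 2 in stem-like (Hlf, Mecom) to 5 in granulocyte progenitor-like and monocyte-like cells. The assignment by these markers fixes this in advance, so it does not test the lineage names. The monocyte-like cells also carried granulocyte markers, at a median of 170 UMIs per 10000 against 290 in granulocyte progenitor-like cells.

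Across the 9 lineages, 63 of 90 pairs of member and lineage differed from the mean of the other lineages of the same mice (edgeR quasi-likelihood test, adjusted p under 0.05), 32 of them higher and 31 lower. Of all pairs of gene and lineage tested, 62.9% were called, so the members were called about as often as any gene. By lineage, all 10 members were called in megakaryocyte-like cells (59.8% of genes), 9 in granulocyte progenitor-like (74.5%), 8 in B-like (59.4%), 7 each in stem-like (65.6%), monocyte-like (72%) and maturing neutrophil-like (77.4%), 6 each in erythroid-like (76.1%) and basophil and mast-like (42.2%) and 3 in lymphoid-primed-like cells (39.4%). The median of the 10 log2 differences was furthest above that of all genes in B-like (0.70 beside -0.04), maturing neutrophil-like (0.49 beside -0.24) and monocyte-like cells (0.66 beside 0.07). Without TMM, 52 of the 63 calls remained, counting that of Bid in maturing neutrophil-like cells, which changed direction. With cells thinned to 5000 UMIs 50 remained. Without TMM the median of all genes moved from -0.24 to -1.0 on the log2 scale in maturing neutrophil-like cells, whose median TMM factor was 0.619, and from 0.03 to 0.33 in stem-like cells. In maturing neutrophil-like cells Bak1 then turned from 0.68 to -0.07 and Bid from 0.39 to -0.37 (log2 fold change, edgeR adjusted p = 0.454 and 0.00317), and in stem-like cells Mcl1 turned from -0.30 to 0.01 (0.918). In the other 7 lineages the median of all genes moved by at most 0.21. The plot of members by lineage shows every library.

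**Figure D1:**
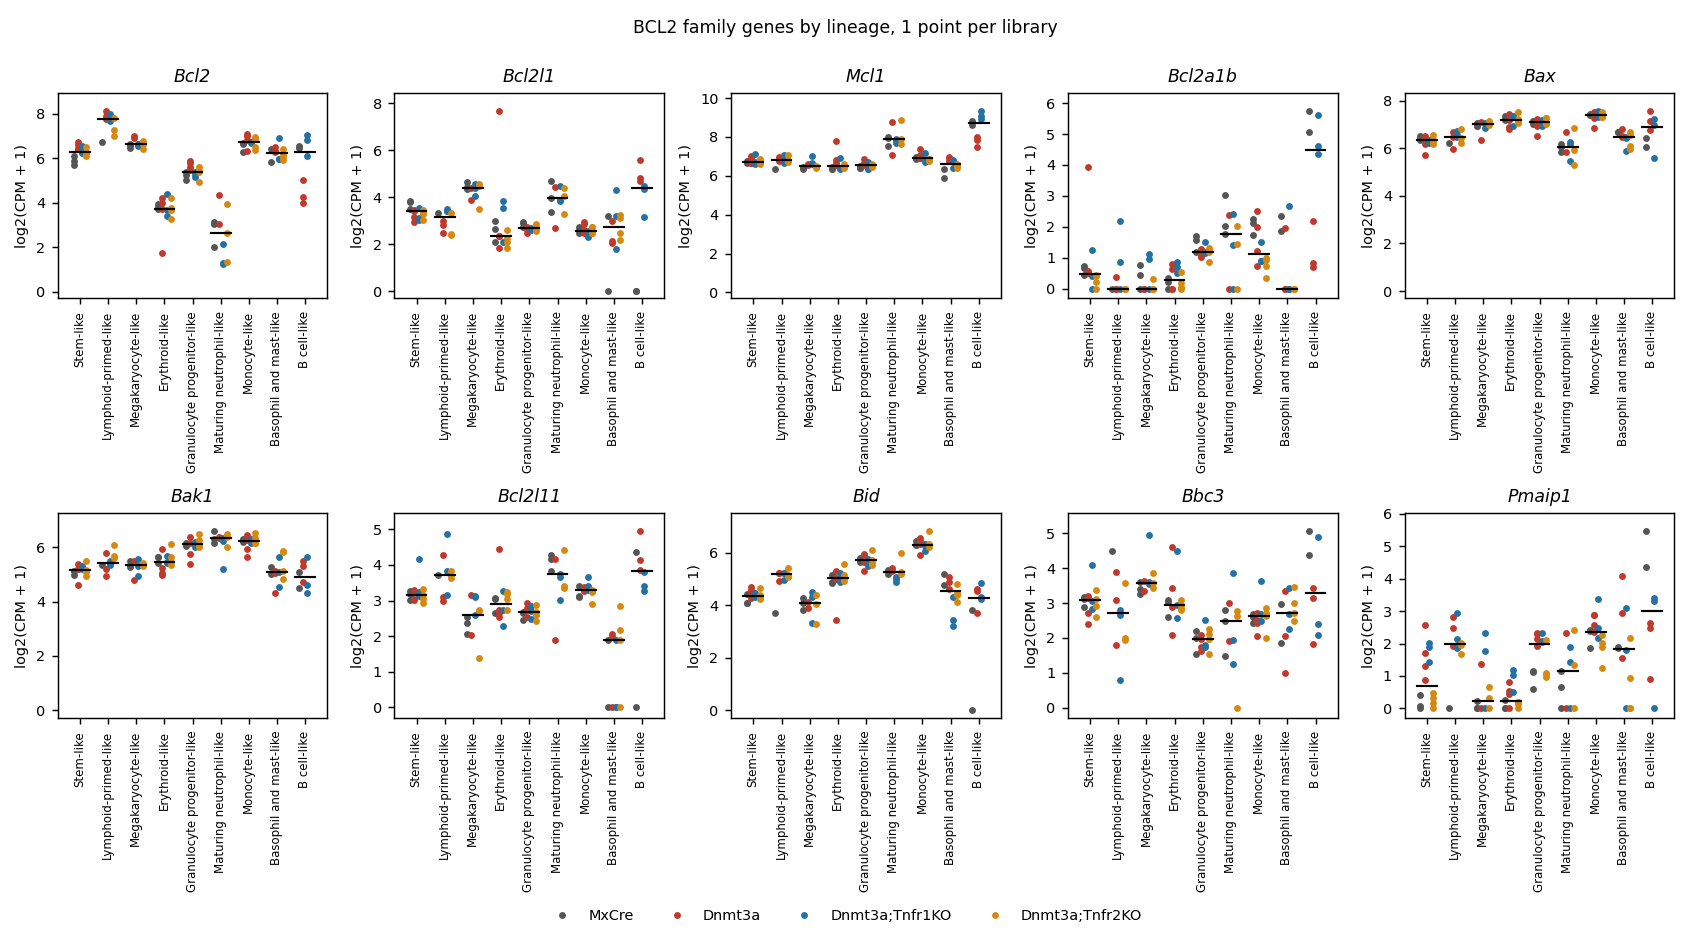
Level of each of the 10 genes, as log2(CPM + 1) on the vertical axis, in 9 lineages on the horizontal axis. Each point is 1 library coloured by group and the black line is the median over libraries. The highest lineage median of Bcl2 is 41.5-fold and that of Bax 2.54-fold its lowest, in CPM with TMM factors.

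Among the survival genes, Bcl2 (GRCm38 chromosome 1, 106538176 to 106714290) varied widely between lineages. Its median level was 217 CPM in lymphoid-primed-like cells (104 to 274 over 10 libraries), 103 CPM in monocyte-like, 99.3 CPM in megakaryocyte-like, 76.8 CPM in stem-like and 74.0 CPM in basophil and mast-like cells. Below these came granulocyte progenitor-like cells at 41.1 CPM (29.2 to 57.2), erythroid-like cells at 12.2 CPM (2.29 to 20.2) and maturing neutrophil-like cells at 5.23 CPM (1.38 to 19.2). The B-like median, also 76.8 CPM (14.8 to 133), mixes libraries of unlike stage, with mature sums at 121 to 191 CPM and precursor-stage sums at 6.94 to 34.2 CPM, so its place in the order depends on that mix. Bcl2 was thus high in early, lymphoid-primed and monocyte-like cells and low in the erythroid and neutrophil directions. Neighbours in this order were compared within mice by an exact two-sided sign-flip permutation test, with adjustment over 80 such tests for the 10 genes. Lymphoid-primed-like exceeded monocyte-like cells in 10 of 10 libraries (adjusted p = 0.0156, exact test), basophil and mast-like exceeded granulocyte progenitor-like cells in 12 of 12 (0.00651), and granulocyte progenitor-like exceeded erythroid-like cells in 14 of 14 (0.00195). The neighbours from monocyte-like down to basophil and mast-like cells, and the last pair, did not pass with TMM. Pairs held by 6 or 7 libraries, as many with B-like cells, could not pass there after the adjustment, the other pairs being as they were. Without TMM megakaryocyte-like exceeded monocyte-like cells (adjusted p = 0.0298, exact test), and erythroid-like exceeded maturing neutrophil-like cells (0.032). For the 10 genes 11 of the 80 pairs passed, and without TMM 28 did, 10 of them in both. Against the mean of the other lineages, Bcl2 was higher by 2.21 ± 0.12 (log2, SE) in lymphoid-primed-like cells and lower in maturing neutrophil-like cells, at -3.35 ± 0.23. Without TMM the highest and lowest medians lay further apart, at 242 CPM (lymphoid-primed-like) and 2.67 CPM (maturing neutrophil-like).

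Mcl1, which encodes a short-lived survival protein needed by many blood cells, was highest in B-like cells at a median of 416 CPM (177 to 637 over 8 libraries) and next in maturing neutrophil-like cells at 238 CPM (135 to 470 over 11 libraries). The B-like level again depends on the mix of stages, with mature sums at 555 to 921 CPM and precursor-stage sums at 144 to 266 CPM without TMM. The other 7 lineages lay close together, between 89.5 CPM (erythroid-like) and 118 CPM (monocyte-like). The step from maturing neutrophil-like to monocyte-like cells held in 11 of 11 libraries (adjusted p = 0.00977, exact test), and no other neighbouring pair of Mcl1 passed with TMM. B-like exceeded maturing neutrophil-like cells by 0.82 (log2) in 6 of 7 libraries, too few for a pass there after the adjustment. Without TMM this pair passed (7 of 7, 0.0446, exact test). Other pairs of Mcl1 then passed too, among them megakaryocyte-like above granulocyte progenitor-like cells (0.00601, exact test). Without TMM maturing neutrophil-like cells were at 144 CPM, near lymphoid-primed-like (125 CPM) and stem-like cells (124 CPM), and the step to monocyte-like cells was 0.42 instead of 0.99 on the log2 scale, in 10 of 11 libraries (adjusted p = 0.0128, exact test). The log2 difference from the mean of the other lineages was 1.67 ± 0.11 in B-like and 1.09 ± 0.09 in maturing neutrophil-like cells (edgeR).

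Bcl2l1, whose product BCL-XL is known for its role in platelets and maturing red cells, was at 20.2 CPM in megakaryocyte-like cells (10.2 to 23.8) and also at 20.2 CPM in B-like cells, with a wide range there (0 to 47.3). Mature B-like sums held 0 to 7.18 CPM and precursor-stage sums 27.8 to 58.0 CPM without TMM. Stem-like cells held 9.59 CPM, granulocyte progenitor-like 5.4 CPM, monocyte-like 4.98 CPM and erythroid-like cells 4.07 CPM. None of its neighbouring pairs passed the exact test with TMM. Without TMM megakaryocyte-like exceeded maturing neutrophil-like cells (8 of 8 libraries, adjusted p = 0.0298, exact test). Bcl2l1 was higher than the mean of the others in megakaryocyte-like cells (1.36 ± 0.26, edgeR) and lower in monocyte-like (-0.95 ± 0.23) and granulocyte progenitor-like cells (-0.78 ± 0.21). In erythroid-like cells Dnmt3a replicate 4 stood alone at 200 CPM (89.4 CPM without TMM), a library given in full with the erythroid-like results. Bcl2a1b, an A1 survival gene, was at 21.4 CPM in B-like cells (0.644 to 52.5) and at 2.41 CPM or less in every other lineage, with a median of 0 in lymphoid-primed-like, megakaryocyte-like and basophil and mast-like cells. Its mature B-like sums were at 21.3 to 92.6 CPM and its precursor-stage sums at 0 to 3.78 CPM without TMM. Bcl2a1b lies on chromosome 9 (89199273 to 89207838) beside near-identical copies, Bcl2a1a and Bcl2a1d, so reads of the 3 genes may be split or lost and its level is uncertain. The copies held 0.07 to 0.50 CPM (Bcl2a1a) and 0.08 to 1.31 CPM (Bcl2a1d) in all kept cells, and Bcl2a1c at most 0.02 CPM.

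The effectors were detected in all 9 lineages. Bax, which moves from the cytosol to the mitochondrion, was at 167 CPM in monocyte-like cells (114 to 185), 146 CPM in erythroid-like, 135 CPM in granulocyte progenitor-like, 128 CPM in megakaryocyte-like, 116 CPM in B-like, 88.4 CPM in basophil and mast-like, 88.2 CPM in lymphoid-primed-like, 80.1 CPM in stem-like and 65.9 CPM in maturing neutrophil-like cells. With TMM only the step from monocyte-like to erythroid-like cells passed (higher in 12 of 14 libraries, adjusted p = 0.0109, exact test, and without TMM 9 of 14 and 0.145). Without TMM megakaryocyte-like exceeded granulocyte progenitor-like cells, and stem-like exceeded maturing neutrophil-like cells in 11 of 11 libraries (both 0.00601, exact test). In the model across genes Bax was nevertheless called in all 9 lineages, from 0.68 ± 0.04 in monocyte-like to -0.84 ± 0.07 in maturing neutrophil-like cells (edgeR, log2). Its calls in lymphoid-primed-like and basophil and mast-like cells were lost without TMM (-0.18 and -0.20, adjusted p = 0.0962 and 0.0661) and with thinned cells (-0.25 and -0.29, 0.0711 and 0.0549), and that in lymphoid-primed-like cells also with marker minima doubled (-0.20, 0.189). Bak1, the effector that sits on the mitochondrion, was led by the myeloid lineages, at 81.2, 74.7 and 68.8 CPM in maturing neutrophil-like, monocyte-like and granulocyte progenitor-like cells. Without TMM maturing neutrophil-like cells came last of these 3 at 50.2 CPM, near lymphoid-primed-like cells at 45.7 CPM, and all 11 libraries that held both were lower there than in monocyte-like cells. With TMM, every other lineage lay between 29.3 CPM (B-like) and 43.2 CPM (erythroid-like). Monocyte-like exceeded granulocyte progenitor-like cells by only 0.12 on the log2 scale but in 14 of 14 libraries, and the latter exceeded erythroid-like cells by 0.59 in 14 of 14 (both adjusted p = 0.00195, exact test). Stem-like cells were low in both effectors, at -0.53 ± 0.05 for Bax and -0.51 ± 0.05 for Bak1.

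The BH3-only genes each had their own order. Bid, the link from death receptors to the mitochondrion, was at 78.8 CPM in monocyte-like cells (59.6 to 113) and 51.3 CPM in granulocyte progenitor-like cells (38.4 to 67.6), down to 19.6 CPM in stem-like and 16.1 CPM in megakaryocyte-like cells. Monocyte-like exceeded granulocyte progenitor-like cells in 14 of 14 libraries (adjusted p = 0.00195, exact test), and these exceeded maturing neutrophil-like cells in 11 of 11 (0.00977). The log2 difference from the mean of the others was 1.58 ± 0.06 in monocyte-like cells (edgeR). Bcl2l11, which encodes BIM and binds all survival proteins, was at 13.1, 12.4 and 12.2 CPM in B-like, maturing neutrophil-like and lymphoid-primed-like cells and lowest in basophil and mast-like cells at 2.72 CPM. None of its neighbours differed by the exact test with TMM. Without TMM Bcl2l11 was higher in stem-like than in erythroid-like (13 of 14 libraries, adjusted p = 0.00488) and monocyte-like cells (0.0374, exact test). It was then also higher in erythroid-like than in granulocyte progenitor-like (0.0128) and in lymphoid-primed-like than in maturing neutrophil-like cells (0.0446). In maturing neutrophil-like cells its level depended on the scaling: without TMM it was 7.7 CPM there, below 4 other lineages, and the log2 difference from the mean of the others was no longer called (0.10 ± 0.17, edgeR adjusted p = 0.615). Bcl2l11 lies on chromosome 2 (128126038 to 128162547).

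Bbc3, a p53 target that encodes PUMA, was at 10.9 CPM in megakaryocyte-like (8.62 to 30.1), 7.57 CPM in stem-like and 2.93 CPM in granulocyte progenitor-like cells (1.88 to 4.74). No neighbouring pair of Bbc3 passed the exact test with TMM. Without TMM stem-like exceeded erythroid-like (adjusted p = 0.0406) and monocyte-like exceeded maturing neutrophil-like cells (0.00601, exact test). The model across genes called Bbc3 higher in megakaryocyte-like (1.07 ± 0.15), erythroid-like (0.37 ± 0.12) and stem-like cells (0.35 ± 0.12) and lower in granulocyte progenitor-like cells (-1.19 ± 0.12, edgeR). The erythroid-like call was lost without Dnmt3a replicate 4 (0.22 ± 0.12, adjusted p = 0.0744). Pmaip1, another p53 target, whose product NOXA mainly binds MCL1, was at 7.0 CPM in B-like cells (0 to 43.4), 4.16 CPM in monocyte-like (1.38 to 9.38), 2.99 CPM in granulocyte progenitor-like, 0.62 CPM in stem-like, 0.179 CPM in erythroid-like and 0.173 CPM in megakaryocyte-like cells. Monocyte-like exceeded granulocyte progenitor-like cells in 14 of 14 libraries (adjusted p = 0.00195, exact test) and stem-like exceeded erythroid-like cells in 12 of 14 (0.0266). The lowest 2 lineages held few UMIs, so the 40.5-fold range of Pmaip1 is imprecise.

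Other genes whose mean level over the 9 lineages followed that of a member were listed as a description, with Pearson's r of log2(CPM + 1) across lineages that share libraries and depth. Bcl2 was followed most closely by Elk3 (r = 0.94), Zfp386 and Nudt14 (both 0.93), and Bcl2l1 by E2f7 (0.94), Dpp8 and Purb (both 0.91). For Mcl1 these were Fbxo38 (0.98), Gpcpd1 and Sipa1 (both 0.97), and for Bcl2a1b Sec16a (0.98), Syvn1 (0.96) and Cyth1 (0.95). Bax was followed by Lsm4 (0.96), Dmac1 (0.95) and Rpf1 (0.94), and Bak1 by Cdc45, Atp6v1c1 (both 0.98) and Psmd13 (0.97). Among the BH3-only genes, Bcl2l11 was followed by Arhgef7 (0.94), Ing2 (0.91) and Qk (0.89), Bid by Dnajb6, Mpdu1 (both 0.97) and Cox4i1 (0.94), Bbc3 by Agpat3 (0.95), Ankib1 and Clic4 (both 0.93), and Pmaip1 by Evl (0.97), Haao (0.96) and Usf1 (0.95). Without the erythroid-like cells of Dnmt3a replicate 4, Dpp8 (0.91) was still among the 3 genes for Bcl2l1 but E2f7 and Purb were not, and 1 of the 3 genes changed for Bcl2 and for Bax. With 9 lineages and 7813 genes to choose from, high values of r are easily reached.

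The groups were compared next, to ask whether the Dnmt3a mutation, and then the loss of either receptor, moved the family. Summed over all kept cells, 1 of the 10 genes rose and none fell in Dnmt3a against MxCre, where 2.48% of all 15608 genes were called. That gene was Pmaip1. It stood at 1.19, 1.25 and 0.574 CPM in the MxCre libraries and at 4.31, 3.78, 2.8 and 4.3 CPM in the Dnmt3a libraries, and the groups did not overlap. The log2 fold change was 1.92 ± 0.43 (SE), a 3.77-fold higher level (edgeR quasi-likelihood test, adjusted p = 0.0411). The call is close to the threshold. It was lost, at unchanged direction and a log2 fold change of 1.63 to 2.08, without MxCre replicate 1, 2 or 3 (adjusted p = 0.0981, 0.0955 and 0.17), Dnmt3a replicate 1 or 3 (0.0778 and 0.0628), Tnfr1KO-labelled replicate 2 or 3 (0.0517 and 0.0627) or Tnfr2KO replicate 1 (0.0524). With only the 2 groups in the fit its adjusted p was 0.0655, and DESeq2 gave 2.4e-04.

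Pmaip1 in the other groups was at 5.68, 3.07 and 3.26 CPM (Tnfr1KO-labelled) and at 1.30, 1.18, 3.38 and 1.11 CPM (Tnfr2KO). The Tnfr1KO-labelled libraries lay in or above the range of Dnmt3a (log2 fold change 0.08 ± 0.40, edgeR adjusted p = 0.93). In Tnfr2KO, 3 of 4 libraries lay below every Dnmt3a library, close to MxCre, and replicate 3 lay in the range of Dnmt3a. The difference of Tnfr2KO from Dnmt3a, -1.13 ± 0.37, did not pass with edgeR (adjusted p = 0.121) and passed with DESeq2 (0.0359). Both comparisons with a receptor genotype share the 4 Dnmt3a libraries with the comparison against MxCre, so they are not independent of it.

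Bcl2 was at 60.0, 45.9 and 57.9 CPM in MxCre, 94.0, 89.3, 84.6 and 52.9 CPM in Dnmt3a, 71.6, 68.9 and 71.3 CPM in Tnfr1KO-labelled and 74.7, 71.0, 53.3 and 65.0 CPM in Tnfr2KO. Dnmt3a replicates 1 to 3 were above every MxCre library and replicate 4 was within their range. The log2 fold change of Dnmt3a over MxCre was 0.55 ± 0.18 and missed the threshold (edgeR, adjusted p = 0.0916). It passed without Dnmt3a replicate 4 (0.71, adjusted p = 0.0317) and with DESeq2 (0.0343).

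Mcl1 in all kept cells was at 90.1, 98.2 and 89.0 CPM in MxCre and at 128, 101, 104 and 149 CPM in Dnmt3a. These groups did not overlap, nor did those of Pmaip1, which makes 2 of 10 members against 19.4% of all genes. The difference of Mcl1, 0.38 ± 0.14, was not called (edgeR, adjusted p = 0.12). The remaining members had log2 fold changes between -0.27 (Bbc3) and 0.40 (Bcl2l11) in this comparison, none called. The median of the 10 was 0.25 and that of all genes 0.03. Sums over all cells mix levels per cell with the share of each lineage, and fewer cells of a type cannot be told apart there from less RNA per cell.

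No member was called in Tnfr1KO-labelled against Dnmt3a, where 0.538% of genes were, in Tnfr2KO against Dnmt3a (0.929%) or in Tnfr2KO against Tnfr1KO-labelled (0.205%) with edgeR. At an unadjusted p under 0.05 there were 0, 3 and 2 members, and DESeq2 called 0, 1 (Pmaip1) and 0. The shares of genes above are those of edgeR and do not apply to these counts. DESeq2 called more genes than edgeR in every comparison, with the numbers given under the processing at the end. The medians of the 10 log2 fold changes were 0.04, -0.28 and -0.08, beside -0.05, -0.03 and 0.02 over all genes. The groups of Bcl2a1b did not overlap in the last comparison, at 1.27, 2.19 and 1.56 CPM in Tnfr1KO-labelled against 1.04, 0.697, 0.642 and 0.823 CPM in Tnfr2KO, which is 1 of 10 members against 5.49% of all genes. B-like cells, where Bcl2a1b was highest, numbered 29, 417 and 141 in these Tnfr1KO-labelled libraries and 9, 9, 4 and 11 in Tnfr2KO. Whether the difference follows them was not tested. In the other comparisons with Dnmt3a no member was free of overlap, where 14.3% (Tnfr1KO-labelled) and 9.31% (Tnfr2KO) of genes were. Bax and Bak1 had means of 121, 120, 133 and 136 CPM and of 51.5, 53.7, 59.9 and 64.3 CPM in the 4 groups in the order given above, with SDs of 4.01 to 21.1 CPM.

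**Figure D2:**
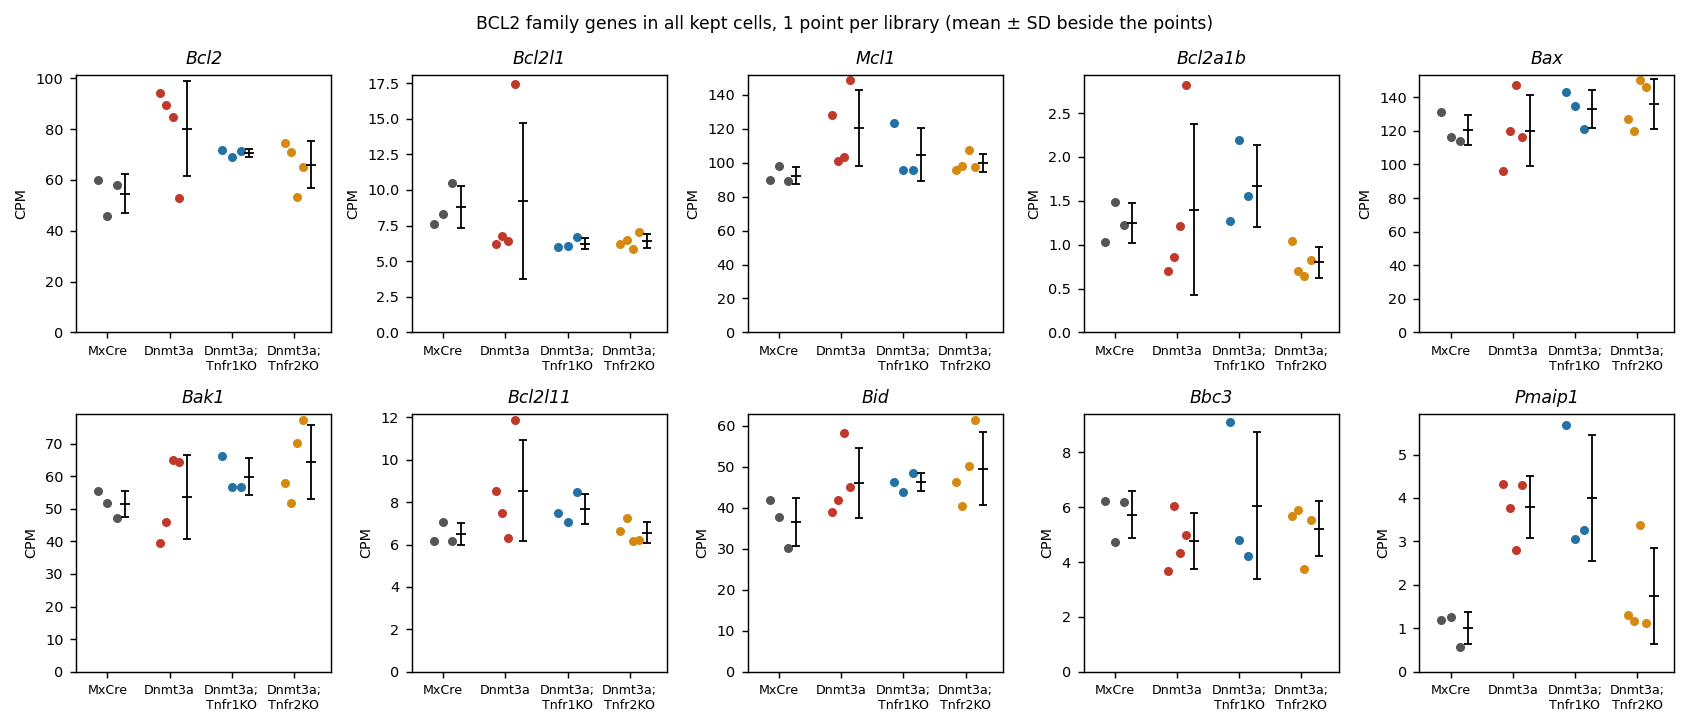
CPM of each of the 10 genes in all kept cells (vertical axis, from 0) by group (horizontal axis). Each point is 1 library, with the group mean and SD beside the points. Pmaip1 is the gene called between Dnmt3a and MxCre, 3 of 4 Tnfr2KO libraries lie near MxCre, and Bcl2l1 has 1 point far above the rest, Dnmt3a replicate 4 at 17.4 CPM.

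Within stem-like cells, 2 of the 9 members tested rose in Dnmt3a against MxCre, Bcl2 and Pmaip1, where 6.12% of genes were called. Bcl2 stood at 66.8, 49.9 and 57.5 CPM in MxCre and at 105, 95.6, 84.6 and 83.9 CPM in Dnmt3a, with no overlap, and all 4 Dnmt3a libraries were higher, replicate 4 included. Its log2 fold change was 0.72 ± 0.13, a 1.64-fold higher level (edgeR, adjusted p = 0.00635), and the call was lost without MxCre replicate 3 (0.70, adjusted p = 0.052). Tnfr1KO-labelled libraries held 76.4, 91.4 and 74.8 CPM and Tnfr2KO libraries 90.2, 71.2, 66.4 and 77.2 CPM, and both groups overlapped Dnmt3a (Tnfr2KO only with TMM). Neither passed the test against Dnmt3a (-0.23 and -0.31, edgeR adjusted p = 0.48 and 0.28).

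Bcl2l1 went the other way, at 13.2, 10.4 and 12.7 CPM in MxCre above 7.94, 9.75, 6.63 and 9.84 CPM in Dnmt3a, without a call (-0.49 ± 0.17, adjusted p = 0.094, edgeR). With Bcl2 and Pmaip1 it made 3 of 9 members whose groups did not overlap, against 19% of genes. Without TMM its groups overlapped and those of Bid did not.

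Pmaip1 in stem-like cells rested on few UMIs. MxCre libraries held 4, 0 and 1 UMIs (0.334, 0 and 0.0595 CPM), Dnmt3a libraries 21, 9, 6 and 15 UMIs (2.28, 1.46, 0.846 and 4.92 CPM), Tnfr1KO-labelled libraries 6, 12 and 8 UMIs (3.08, 1.69 and 2.70 CPM), and Tnfr2KO libraries 0, 1, 1 and 2 UMIs (0, 0.112, 0.393 and 0.254 CPM). The lowest Dnmt3a or Tnfr1KO-labelled library lay above the highest MxCre or Tnfr2KO library. In Dnmt3a replicate 4, a single cell gave 11 of the 15 UMIs. The fitted log2 fold change of Dnmt3a over MxCre was 3.82 ± 0.73 (edgeR, adjusted p = 0.00718; 3.32 and 0.0751 without MxCre replicate 3).

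Tnfr2KO against Dnmt3a gave -3.64 ± 0.76 for Pmaip1 in stem-like cells (edgeR, adjusted p = 0.0322), 1 of 9 members called where 0.514% of genes were. This call was lost without Dnmt3a replicate 1 or 4 (adjusted p = 0.0973 and 0.10), any of the 3 Tnfr1KO-labelled libraries (0.0538 to 0.0621) or Tnfr2KO replicate 1 or 2 (0.127 and 0.122), with a log2 fold change of -3.21 to -3.65. DESeq2 gave Pmaip1 no adjusted p here. Pmaip1 was also the 1 of 9 members whose groups did not overlap there, against 5.22% of genes. Against Tnfr1KO-labelled libraries the Tnfr2KO value was -3.70 ± 0.83 and did not pass (adjusted p = 0.14, edgeR, 0.146% of genes called), and the groups did not overlap (1 of 9 members, 5.76% of genes). Between Tnfr1KO-labelled and Dnmt3a libraries no member of the 9 was called or free of overlap, where 0.48% of genes were called and 11.5% did not overlap (without TMM 1 member, Bid, and 13.9%), with 0 members at an unadjusted p under 0.05 and 0 called by DESeq2.

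Free RNA in droplets can give stray UMIs, so the share of cells with a Pmaip1 UMI was set beside that of erythroid-like cells, where the gene was near 0. With the groups in the order MxCre, Dnmt3a, Tnfr1KO-labelled, Tnfr2KO, it was 0.241%, 3.93%, 4.20% and 0.248% of stem-like cells and 0.308%, 1.03%, 2.23% and 0.232% of erythroid-like cells. Stem-like cells of MxCre and Tnfr2KO were thus at the level of the erythroid-like ones. After thinning each cell to 5000 UMIs the stem-like shares were 0.049%, 0.839%, 0.71% and 0.064%. The erythroid-like share was then 0% in MxCre and Tnfr2KO, 0.236% in Dnmt3a and 0.915% in Tnfr1KO-labelled libraries, so in the last the stem-like share no longer exceeded it. That comparison rests on few cells with a UMI, among 563 stem-like and 765 erythroid-like cells pooled over mice. The erythroid-like share was itself higher in Dnmt3a and Tnfr1KO-labelled libraries, so it is not a background free of group differences. Median depth was 8878 to 24183 UMIs in stem-like and 9601 to 38292 UMIs in erythroid-like cells by library.

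In granulocyte progenitor-like cells Pmaip1 was the 1 of 10 members called, again higher in Dnmt3a than in MxCre, where 5.63% of genes were called. Libraries stood at 1.24, 1.17 and 0.524 CPM in MxCre, 3.91, 4.05, 2.83 and 3.36 CPM in Dnmt3a, 4.01, 3.23 and 3.16 CPM in Tnfr1KO-labelled and 0.942, 1.07, 3.35 and 1.11 CPM in Tnfr2KO. Only Tnfr2KO replicate 3 broke the split into a low pair and a high pair of groups. The log2 fold change was 1.80 ± 0.42 (edgeR, adjusted p = 0.0267), and without MxCre replicate 1, 2 or 3 the adjusted p was 0.115, 0.0747 and 0.0941. Tnfr2KO against Dnmt3a missed the threshold here (-1.10 ± 0.35, adjusted p = 0.073, edgeR). No member was called in this lineage in Tnfr1KO-labelled against Dnmt3a, Tnfr2KO against Dnmt3a or Tnfr2KO against Tnfr1KO-labelled, where 4.63%, 4.76% and 0.26% of genes were. Of the members 1, 2 and 1 had an unadjusted p under 0.05 and DESeq2 called 0, 1 and 0. The shares of genes above are those of edgeR at adjusted p, and none is given for these 2 criteria.

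The same lineage had 4 of 10 members without overlap between Dnmt3a and MxCre, against 22.5% of genes. Bcl2 was at 41.2, 31.2 and 36.6 CPM in MxCre and 47.4, 57.2, 53.9 and 42.8 CPM in Dnmt3a (0.47 ± 0.15, adjusted p = 0.07, edgeR). Mcl1 was also higher in Dnmt3a (0.24 ± 0.11) and Bcl2l1 lower (-0.27 ± 0.13), neither called. The other 6 members overlapped, and without TMM Bcl2l1 did too. Bcl2 was also lower in all Tnfr1KO-labelled libraries (34.5, 39.9 and 38.1 CPM) than in any Dnmt3a library, the 1 of 10 members without overlap there (20.8% of genes), and none was in Tnfr2KO against Dnmt3a (13.1%) or Tnfr1KO-labelled (4.65%). Without TMM the counts against Dnmt3a were 3 of 10 in Tnfr1KO-labelled (Bcl2, Bcl2l1 and Mcl1, 28.6% of genes) and 2 in Tnfr2KO (Bcl2 and Mcl1, 20.1%).

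No member was called between groups in monocyte-like, erythroid-like, megakaryocyte-like, maturing neutrophil-like, basophil and mast-like or lymphoid-primed-like cells by edgeR. In monocyte-like cells, the unadjusted p was under 0.05 for 0, 1, 3 and 2 members in the 4 comparisons and DESeq2 called 0, 0, 2 and 0. By edgeR at adjusted p, 0.946%, 1.42%, 1.83% and 0.176% of genes were called there, and the shares by the other 2 criteria are not given. The groups of 0, 0, 2 (Mcl1 and Pmaip1, lower in Tnfr2KO) and 1 of 10 members did not overlap there, against 16.7%, 15.4%, 10.1% and 3.89% of genes. Without TMM they were 3 (Mcl1, Bcl2l11 and Pmaip1), 1, 3 and 0, against 21.1%, 21.4%, 15.3% and 3.61% of genes. The shares of genes called in the same order were 0%, 0.00929%, 0.0836% and 0.0465% in erythroid-like, 4.8%, 1.22%, 1.33% and 0.125% in megakaryocyte-like, 0.19%, 0.175%, 0.248% and 0% in basophil and mast-like cells and 0% throughout in maturing neutrophil-like cells. In lymphoid-primed-like cells, which had too few MxCre libraries, they were 0.772%, 0.0568% and 0.0341% in the last 3 comparisons. Over the other 5 lineages at most 2 members of a comparison had an unadjusted p under 0.05, and DESeq2 called 1, in megakaryocyte-like cells of Dnmt3a against MxCre. The shares of genes by these 2 criteria are not given either. In megakaryocyte-like cells Bcl2 was at 93.6, 87.3 and 99.8 CPM in MxCre and at 121 and 127 CPM in the 2 Dnmt3a libraries with enough cells (0.46 ± 0.14, adjusted p = 0.06, edgeR). Members whose groups did not overlap in this lineage were 2 (Bcl2 and Mcl1), 1 (Bcl2), 2 (Bcl2 and Mcl1) and 1 (Mcl1) of 8 in the 4 comparisons, with Dnmt3a higher in the first 3 and Tnfr1KO-labelled in the last, against 40.9%, 26.3%, 27.7% and 12.2% of genes. A test of whether the group difference itself varied over the 4 lineages that all libraries held called no member in any comparison, where 0.319%, 0.0363%, 0.0581% and 0.029% of genes passed. For Pmaip1 in Dnmt3a against MxCre its p was 4.2e-04 and its adjusted p 0.0924 (edgeR). The differences seen in stem-like or granulocyte progenitor-like cells are therefore not shown to differ from those in monocyte-like or erythroid-like cells.

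**Figure D3:**
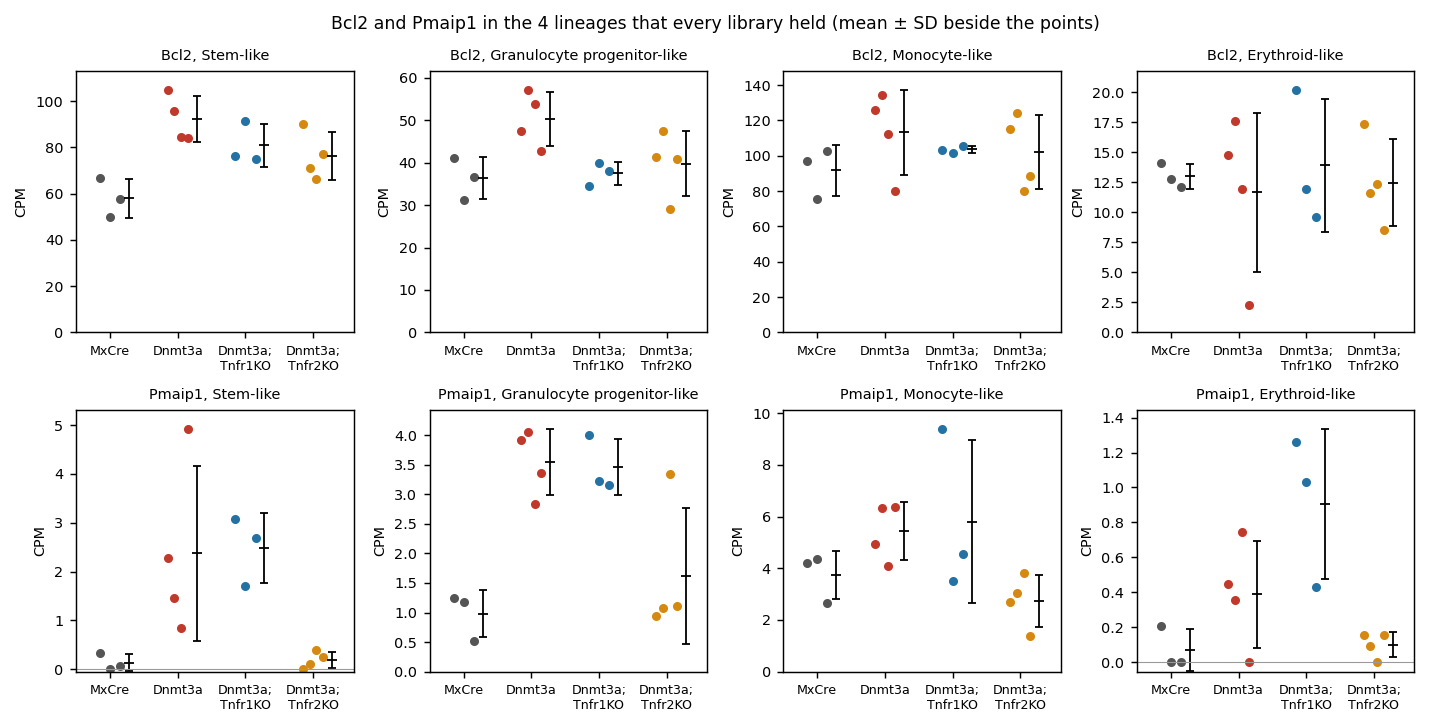
CPM of Bcl2 (top row) and Pmaip1 (bottom row) on the vertical axis by group in stem-like, granulocyte progenitor-like, monocyte-like and erythroid-like cells. Each point is 1 library with the mean and SD beside it. Bcl2 of all 4 Dnmt3a libraries lies above MxCre in stem-like and granulocyte progenitor-like cells, and Pmaip1 of Tnfr2KO lies with MxCre in stem-like cells.

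The B-like cells gave the widest differences between groups, and the share of each stage among them differed between the same groups. They were compared in 8 libraries with at least 20 such cells, 2 of MxCre, 3 of Dnmt3a and 3 of Tnfr1KO-labelled. In Dnmt3a against MxCre, Bcl2 (-2.16 ± 0.44), Mcl1 (-1.12 ± 0.26) and Bcl2a1b (-5.52 ± 0.89) fell and Bcl2l1 rose, 4 of 10 members where 8.83% of genes were called (edgeR, adjusted p = 0.00531, 0.0134, 0.00101 and 0.0427). Bcl2l1 had no UMI in the MxCre B-like cells, so its level in Dnmt3a, 44.9 CPM over the group, was at least 3.66-fold higher than the 12.3 CPM that 3 UMIs over the group would give. All 4 calls were lost without MxCre replicate 3, and all but that of Bcl2a1b without MxCre replicate 1. In such a fit the lone MxCre library is assumed to vary like the other groups. Over 13 alternatives the log2 fold changes kept their direction, at -2.65 to -1.66 (Bcl2), -1.26 to -0.875 (Mcl1), -6.02 to -4.61 (Bcl2a1b) and 4.25 to 10.1 (Bcl2l1). The call of Bcl2l1 was also lost without Dnmt3a replicate 1 or 4 (0.0569 and 0.0639), with marker minima doubled (0.0527) and by DESeq2 (0.0651).

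Tnfr1KO-labelled against Dnmt3a ran the other way in B-like cells, with Bcl2 (2.30 ± 0.30), Mcl1 (1.38 ± 0.23) and Bcl2a1b (4.49 ± 0.66) higher and Bcl2l1 lower (-1.37 ± 0.45), 4 of 10 members where 20.4% of genes were called (edgeR, adjusted p = 7.3e-05, 5.1e-04, 2.0e-04 and 0.0436). Bcl2 was at 86.9 and 91.8 CPM in MxCre, 14.8, 17.9 and 31.6 CPM in Dnmt3a and 66.8, 112 and 133 CPM in Tnfr1KO-labelled. The Dnmt3a libraries were low throughout and did not overlap the others. The groups of 7 of 10 members did not overlap in Dnmt3a against MxCre and those of 5 in Tnfr1KO-labelled against Dnmt3a, where 50.7% and 35.8% of genes did not. The calls of Bcl2, Mcl1 and Bcl2a1b held in all 13 alternatives that kept the stages together, while that of Bcl2l1 was lost in 6 of them. These were without Dnmt3a replicate 4 (-1.01, adjusted p = 0.152), without Tnfr1KO-labelled replicate 2 (-0.66, 0.49), with the replicate block (-0.26, 0.885), with doublets kept (-1.37, 0.0515), with marker minima doubled (-1.31, 0.0577) and by DESeq2 (0.155).

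Cells with more Vpreb1 and Igll1 UMIs (the surrogate light chain of B precursors) than Ms4a1 UMIs (CD20 of mature B cells) made up 61 of 76, 78 of 168 and 1987 of 2117 B-like cells in the Dnmt3a libraries. They were 0 of 24 and 4 of 50 in MxCre and 3 of 29, 20 of 417 and 6 of 141 in Tnfr1KO-labelled libraries. Bcl2 differed between the stages within the 3 libraries that held 20 cells of each. It was at 123 CPM in mature against 6.94 CPM in precursor-stage cells of Dnmt3a replicate 3, at 191 against 34.2 CPM in replicate 4 and at 126 against 11.3 CPM in Tnfr1KO-labelled replicate 2, in CPM of the stage's total without TMM. Over all libraries with 20 cells of a stage, Mcl1 ranged from 555 to 921 CPM in 6 mature and from 144 to 266 CPM in 4 precursor-stage sums, Bcl2a1b from 21.3 to 92.6 against 0 to 3.78 CPM, and Bcl2l1 from 0 to 7.18 against 27.8 to 58.0 CPM. The ranges of the other 6 members overlapped between the stages.

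With the stages apart, only mature B-like cells of Dnmt3a and Tnfr1KO-labelled libraries could be tested, and none of 4 members was called (Bcl2 -0.15 ± 0.30, Mcl1 0.08 ± 0.31, Bcl2a1b -0.29 ± 0.53 and Bax -0.43 ± 0.34 on the log2 scale, edgeR, none with an unadjusted p under 0.05, where 0.257% of genes were called). Bcl2l1 was not among these 4 members. Dnmt3a against MxCre was not tested within a stage, so genotype and stage cannot be told apart there. B-like cells carry a lineage marker in their mature form, and how they passed the sort was not tested. In all kept cells without B-like and T-like cells, a count chosen after seeing the data, Pmaip1 stayed at 1.96 ± 0.43 (edgeR, adjusted p = 0.0358) and Bcl2 at 0.59 ± 0.16 (0.061) in Dnmt3a against MxCre, where 3.29% of genes were called. In the cells that passed no marker rule, 7.92% of genes were called in that comparison, with Bcl2 at 0.57 ± 0.13 (0.0215) and Pmaip1 at 1.94 ± 0.44 (0.0219).

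**Figure D4:**
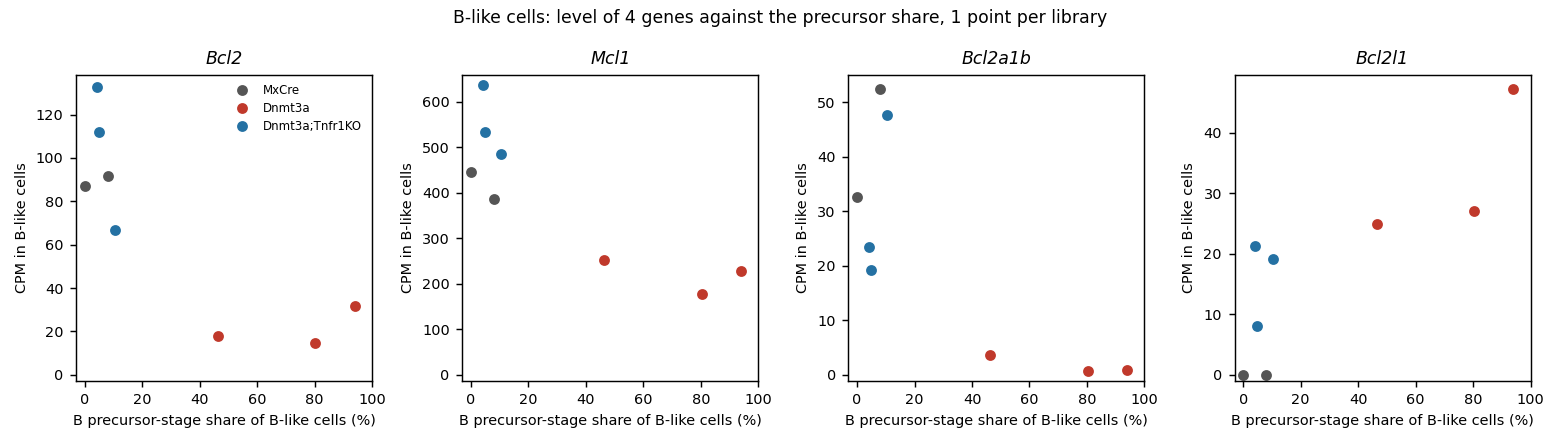
CPM of Bcl2, Mcl1, Bcl2a1b and Bcl2l1 in B-like cells (vertical axis) against the percentage of B-like cells at the precursor stage (horizontal axis). Each of the 8 points per panel is 1 library coloured by group. The 3 Dnmt3a libraries, at 46.4% to 93.9% precursors, have the lowest Bcl2 and Bcl2a1b and the highest Bcl2l1.

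One library stood apart in erythroid-like cells. In Dnmt3a replicate 4, Bcl2l1 was at 200 CPM (350 UMIs), against 2.58 to 13.2 CPM in the other 13 libraries, and Bcl2 at 2.29 CPM (8.52 to 20.2 elsewhere). The TMM factor of this sum was 0.446. Without TMM Bcl2l1 was at 89.4 CPM against 2.49 to 12.4 CPM and Bcl2 at 1.02 CPM against 8.24 to 18.9 CPM, still outside the other libraries. Mcl1 was far above them only with TMM, at 219 CPM (81.2 to 118 elsewhere) but 97.8 CPM without it (77.6 to 138), and Bcl2l11 went from 20.6 CPM (3.92 to 8.57) to 9.19 CPM (3.86 to 8.20). Late red cell genes moved with them: Hba-a1, a globin, was at 204644 CPM against 237 to 7567, Slc4a1, the red cell anion exchanger, at 3394 against 4.51 to 176, and Alas2, the first enzyme of red cell heme synthesis, at 3098 against 2.35 to 140 CPM. Kit, the sorted surface marker, was at 21.7 CPM against 70.8 to 187. Car1, a marker used to assign the lineage, was also lower, at 1202 against 2134 to 3953 CPM. Without TMM these genes were still outside the range of the other libraries (Hba-a1 at 91358 CPM, Slc4a1 at 1515, Alas2 at 1383, Kit at 9.70 and Car1 at 537 CPM). These values are from 1 library of 289 cells, have no replicate, and the fitted Bcl2l1 difference of Dnmt3a over MxCre in this lineage did not pass (3.4 ± 1.34, adjusted p = 0.29, edgeR).

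The rest of the death pathway was given by lists of other BCL2 family genes (16 listed, 13 tested), caspase and apoptosome genes (14), inhibitor and death receptor genes (11), p53 and its targets (12) and regulators of the members (11). In all kept cells, 61 genes of these lists were tested per comparison. In Dnmt3a against MxCre 1 fell, none rose, and 10 had an unadjusted p under 0.05, with a median log2 fold change of 0.02 beside 0.03 over all genes. Of p53 and its other targets, none of 12 was called by edgeR. Of these 12, 3 had an unadjusted p under 0.05 and 1 was called by DESeq2. The median of the 12 was -0.01, which does not show whether single targets moved in opposite directions. The listed gene called as lower was Tnfrsf10b, a death receptor for TRAIL, at a mean of 0.766 ± 0.101 CPM in Dnmt3a (SD, n = 4) against 1.36 ± 0.13 CPM in MxCre (SD, n = 3) (edgeR, log2 fold change -0.83, adjusted p = 0.0456).

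No gene of the lists was called in Tnfr1KO-labelled against Dnmt3a by edgeR, while 8 had an unadjusted p under 0.05 and DESeq2 called 2. The shares of all genes by the latter criteria are again not given. In Tnfr2KO against Dnmt3a 1 rose and 1 fell. Dffb, the nuclease that cuts DNA in apoptosis, was at 18.3 to 24.2 CPM in the 4 Tnfr2KO libraries and at 8.15 to 10.8 CPM in the other 10 (edgeR, log2 fold change 1.12 ± 0.12 against Dnmt3a, adjusted p = 5.0e-04, and 0.99 ± 0.13 against Tnfr1KO-labelled, 0.00414). Dffb lies on chromosome 4 (153964447 to 153975121), the chromosome of Tnfrsf1b (145212368 to 145246870). Whether its difference goes with the lost receptor or with this position was not tested. Fbxw7, which marks MCL1 for destruction, was at 20.0 ± 1.95 CPM in Dnmt3a (SD, n = 4) and 14.5 ± 0.42 CPM in Tnfr2KO (SD, n = 4) (-0.47 ± 0.10, SE, edgeR adjusted p = 0.0429). In stem-like cells Dffb was the listed gene called, at 1.17 ± 0.17 and 1.06 ± 0.20 in the same 2 comparisons (edgeR, adjusted p = 0.00278 and 0.039).

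In granulocyte progenitor-like cells Fbxw7 was higher in Dnmt3a than in MxCre (0.41 ± 0.10), Tnfr1KO-labelled (-0.55 ± 0.10 against Dnmt3a) and Tnfr2KO (-0.54 ± 0.09), with adjusted p of 0.0361, 0.0118 and 0.00832 (edgeR). Tnfr2KO libraries there also had lower Dffa, the inhibitor of the Dffb nuclease (-0.73 ± 0.14), and lower Usp9x, which removes ubiquitin from MCL1 (-0.63 ± 0.16), with edgeR adjusted p of 0.0121 and 0.0417. For Dffa too, whether the difference goes with the lost receptor or with the position of the gene was not tested. Mcl1 mRNA itself was not called in this lineage in any comparison.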

How the data were processed

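The deposited files are UMI count matrices of genes by cells, 1 per mouse. Per the submitters' processing notes, the authors used bcl2fastq 2.20.0.422 and Cell Ranger 6.0.0 with the mm10 build. The counts held no columns that could not be placed.

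Cells with at least 1000 UMIs, 500 genes and under 10% mitochondrial UMIs were kept, and simulated-neighbour doublets were removed at 0.8% per 1000 cells. A lineage needed a minimum share of marker UMIs per 10000 (from 2 for stem-like to 100 for granulocyte progenitor-like cells), with at least 3 markers detected (2 for stem-like and lymphoid-primed-like). The replicate is the mouse. Counts were summed per mouse, or per mouse and lineage with at least 20 cells in at least 2 libraries of a group, and tested with edgeR 4.0.16 (quasi-likelihood, TMM, filterByExpr, all 4 groups in 1 fit, Benjamini-Hochberg over all genes, adjusted p under 0.05) in R 4.3.3. Lineages were compared in 1 fit with a term for each mouse, and CPM within lineages uses TMM over all sums of mouse and lineage. Ranges across libraries cover counting error and mouse alike. Alternatives were DESeq2 1.42.0, other filters, the replicate number as a block, and each library left out. Same-numbered samples did not deviate together (19 pairs, median correlation -0.041), so numbers were not used as pairs. On simulated data for Dnmt3a against MxCre (15433 genes), 57 of 99 2-fold and 78 of 100 4-fold changes were recovered with 6 false calls.

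The members and lists were chosen with earlier results of these data known. Named genes are the 10 members, the copies of Bcl2a1b, genes of the lists called in all kept cells, the targeted genes, and the 3 genes most like each member among those with a mean of at least 10 CPM over lineages. Genes outside this rule, such as Dffa, Usp9x, Car1, Hba-a1, Slc4a1, Alas2 and Kit, were named after values were seen. Genes with more than 1 identifier under a symbol were left out of the lists.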

Additional observations from a re-analysis of the deposited data

Results flagged for a closer look

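In 100 groups of 4 libraries, 10 values lay far from the other 3 of their group, and chance alone flags about 1 in 20 groups. The groups share libraries and cells, so their flags are not independent. Of the 10 values, 5 came from Dnmt3a replicate 4. In its erythroid-like cells Bcl2l1 was at 200.2 CPM against 2.58 to 4.11 CPM in the other Dnmt3a libraries, Bcl2l11 at 20.6 against 4.86 to 5.6 CPM and Mcl1 at 219 against 92.2 to 111 CPM. Without TMM, Bcl2l1 stayed far from the others (89.4 against 3.19 to 4.49 CPM), while Bcl2l11 (9.19 against 5.31 to 6.94 CPM) and Mcl1 (97.8 against 97.3 to 138 CPM) did not. In all its kept cells Bcl2l1 was at 17.4 CPM against 6.22 to 6.74. In its stem-like cells Bcl2a1b was at 14.4 CPM against 0.423 to 0.488, and 40 of the 44 UMIs came from 1 cell.

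Tnfr2KO replicate 3 had high Pmaip1, at 3.38 CPM in all kept cells against 1.11 to 1.30 in the other Tnfr2KO libraries and at 3.35 CPM in granulocyte progenitor-like cells against 0.942 to 1.11. Its Bbc3 was low in all kept cells, at 3.73 CPM against 5.55 to 5.91. In monocyte-like cells of Tnfr2KO replicate 4, Bid was at 113 CPM against 72.9 to 79.3 and Bcl2l11 at 6.49 CPM against 8.40 to 8.76. Without TMM that Bcl2l11 value, 5.92 against 7.35 to 8.06 CPM, was no longer far from the others.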

How the results depend on the processing

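The 20 member differences recomputed kept their direction in the alternatives that kept the B-like stages together, while within mature B-like cells Bcl2 and Bcl2a1b in Tnfr1KO-labelled over Dnmt3a were at -0.15 and -0.29 (2.30 and 4.49 with the stages together). In all kept cells, 1 member was called in Dnmt3a against MxCre by edgeR, 2 by DESeq2, 0 with only the 2 groups in the fit and 0 to 2 with 1 library left out, and in Tnfr2KO against Dnmt3a 0 by edgeR and 1 by DESeq2. Summed over lineages, member calls were 7, 4, 1 and 0 in the 4 comparisons (Dnmt3a over MxCre, then each receptor genotype over Dnmt3a, Tnfr1KO-labelled first, then the receptor genotypes with each other). In each of the first 2, 4 calls were in B-like cells, where 8.83% and 20.4% of genes were called. The member counts that follow have no share of all genes beside them. Leaving out 1 library gave 0 to 9, 3 to 5, 0 to 2 and 0 to 1. With B-like cells split by stage, an alternative chosen after seeing the data, the first 2 were 3 and 0. In Dnmt3a over MxCre neither stage could be tested. In the third, DESeq2 gave 3, no filter on low counts 4 and doubled marker minima 0, and in the fourth DESeq2 and no filter gave 1 each. Between lineages 63 calls became 54 with thinned cells, 58 without TMM and 61 to 70 with 1 library left out. Over all lineages and comparisons the groups of 39 of 265 pairs of member and comparison did not overlap (15.5% of genes) and 57 without TMM (17.7%), chosen after seeing the data.

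Genes called in all kept cells were 387, 84, 145 and 32 by edgeR and 1517, 911, 1108 and 104 by DESeq2, and leaving out 1 library gave 1 to 1301, 8 to 327, 30 to 789 and 18 to 74. With only the 2 groups in the fit they were 7 in the first and 17 in the third. Without B-like and T-like cells, also chosen after seeing the data, the third was 88.

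With the replicate number as a block, which pairs no mice by the labels, genes called were 142 and 37 in the first 2 comparisons, Pmaip1 in Dnmt3a against MxCre was at 1.98 (edgeR, adjusted p = 0.0713), so 0 members were called there, and 1 member was called within lineages in Tnfr2KO against Tnfr1KO-labelled. Depth limits Pmaip1, Bcl2a1b and Bcl2l1 in small lineages, where a few UMIs set a library's value.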
